A study of Mus musculus with 6 samples.

Results

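Collagen IV is the network-forming collagen of basement membranes, and the genes described here are those of its most widespread chains, Col4a1 and Col4a2, together with 6 genes whose proteins fold and modify collagen chains, which are Plod1, Plod2, Plod3, P4ha1, P4hb and Serpinh1. These are 8 of the 24940 genes in the table. The group was chosen by the measured levels of Col4a2, which were higher with RANKL and higher again with the leaf extract, so the levels of Col4a2 are given as a description with no test, and the others were added for the function of their proteins. Osteoclast precursors were bone marrow-derived macrophages (BMMs) from mice, grown in M-CSF. The labels give an age of 6 to 8 weeks and the strain C57BL/6, whereas the methods of the study give male ICR mice of a narrower age range. M-CSF at 30 ng/mL was in all cultures during the 3 days of treatment. The -R group received nothing else, the +R group also received RANKL, the cytokine that drives osteoclast formation, at 100 ng/mL, and the R+LE group received the same RANKL with the leaf extract (LE) of Abeliophyllum distichum at 10 μg/mL. LE without RANKL was not analysed here, so values in R+LE describe LE only in the presence of RANKL. Each group had 2 libraries, and the sources used here do not say whether these came from separate animals, so the spread between them may be technical.

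Collagen chains are made in the endoplasmic reticulum. Prolyl 4-hydroxylase, whose catalytic subunit is encoded by P4ha1 and whose other subunit is the protein disulfide isomerase encoded by P4hb, hydroxylates prolines and so stabilizes the triple helix. The lysyl hydroxylases encoded by Plod1, Plod2 and Plod3 prepare lysines for sugar attachment and crosslinking, and Plod3 also carries the glycosyltransferase activity. Hsp47, the product of Serpinh1, is a chaperone that binds folded procollagen. Macrophages and osteoclasts degrade collagen, and the chains and enzymes of its synthesis are best known from fibroblasts, osteoblasts and endothelial cells.

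Depth was similar in the 6 libraries, with 29390292 to 34846556 mapped reads, and 74.2% to 80.7% of them lay on genes. The 45S ribosomal RNA entry Rn45s took 4.97% and 6.83% of gene reads in the -R libraries and 10.9% to 13.5% in the others. Levels are in RPKM, reads per kilobase of transcript scaled to the mapped reads of the library, which allow genes of different length to be compared. Differences between groups are fitted differences of log2(RPKM + 0.5) from limma over the 11595 genes whose mean level reached 0.5 RPKM, and they understate the fold of low genes. A gene passed a comparison at a Benjamini-Hochberg adjusted p below 0.05, and it was called if the fitted difference was also at least 2-fold. The labelled cell type was checked on 8 macrophage markers, whose summed level was 6732 to 7319 RPKM in -R, 2692 to 3455 in +R, then 3764 to 4206 in R+LE. Most of this sum was Lyz2, with means of 5317, 2132 and 3060 RPKM. For +R against -R, 7 passed as lower (21.5% of all tested genes), and Itgam was higher without passing (mean 70.5 RPKM in -R, 90.2 in +R). For R+LE against +R, 2 passed as higher (5.19% of all). Cd68 (mean 444.9 RPKM in +R, 336.5 in R+LE) and Csf1r (206 and 185.2) were lower without passing. The summed level of 8 osteoclast markers was 43.2 to 44.8 RPKM in -R, 1866 to 2123 in +R, then 329.2 to 380.0 in R+LE. The part of this shift in cell state, or of the Rn45s share, in the values below was not tested.

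Col4a1 and Col4a2 lie head to head on mouse chromosome 8 (mm10). Col4a1 runs on the minus strand from 11198423 to 11312826 and Col4a2 on the plus strand from 11312805 to 11449287. Their first exons overlap by 22 bases, which is 0.333% of the annotated exon bases of Col4a1 and 0.341% of those of Col4a2. The reads were counted without regard to strand, so a read within these bases counted for both genes. The overlap, chr8:11312805-11312826 on the plus strand of GRCm38.p6, is shown because it is where both transcripts begin, with a GC box (GGGCGG, or CCGCCC on the other strand) in capitals.
Col4a1 and Col4a2 shared first exon: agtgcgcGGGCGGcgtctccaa

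In RefSeq's promoter table for GRCm38.p6, which gives 250 bases before and 50 after each start, 7 of the 8 genes were found, all but Plod2. The 250 upstream bases of either collagen gene lie wholly in annotated exons and within the span of the other one, and are not printed. The upstream bases of Plod1 and P4hb are shown, since Plod1 had the largest fall of the fitted log2 difference with RANKL among the tested processing genes and P4hb had the highest level. Capitals mark the GC box as above and the CCAAT box (CCAAT, or ATTGG on the other strand). Plod1 is given from chr4:147936777-147937026 and P4hb from chr11:120573254-120573503, both on the minus strand.
Plod1 upstream: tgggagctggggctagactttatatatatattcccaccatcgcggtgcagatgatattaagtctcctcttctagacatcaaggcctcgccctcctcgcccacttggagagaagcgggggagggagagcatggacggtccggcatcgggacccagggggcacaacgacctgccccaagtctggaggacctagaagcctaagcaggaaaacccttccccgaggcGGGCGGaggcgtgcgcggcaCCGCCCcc
P4hb upstream: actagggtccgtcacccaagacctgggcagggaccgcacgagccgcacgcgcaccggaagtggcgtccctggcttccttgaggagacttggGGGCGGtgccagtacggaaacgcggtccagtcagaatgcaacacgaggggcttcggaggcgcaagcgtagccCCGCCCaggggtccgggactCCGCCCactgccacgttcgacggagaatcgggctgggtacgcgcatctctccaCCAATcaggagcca

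Both upstream stretches hold GC boxes, 2 in that of Plod1 and 3 in that of P4hb, and that of P4hb also holds 1 CCAAT box close to the start. Over the 300-base windows, the GC box was found in 6 of the 7 genes, all but Plod3, against 35.7% of all 32851 windows of the table. The 1 GC box in the Col4a1 window is the one in the shared first exon bases, which also lies in the Col4a2 window. The CCAAT box was in the windows of Col4a1, Col4a2, Plod3 and P4hb, against 37.4% of all windows. A CT-rich motif (CCCTCCCC, or GGGGAGGG on the other strand) was found in the windows of Plod1, Col4a1 and Col4a2, against 10.8% of all windows, and for the collagen genes it is the same site, at 11312792 to 11312799, because their windows overlap. The core of the hypoxia response element (ACGTG, or CACGT on the other strand) was found in the windows of P4ha1, P4hb, Plod3 and Serpinh1, against 19.6% of all windows. These are matches of letters and say nothing on whether a factor binds there.

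The collagen IV chains were lowest without RANKL and higher with each treatment. Col4a1 was at 0.700 and 0.687 RPKM in -R, 7.12 and 6.01 in +R, then 17.3 and 21.9 in R+LE, from 135 and 157, 1435 and 1211, and 3591 and 4368 reads. Col4a2 was at 1.14 and 0.731 RPKM in -R, 9.51 and 7.81 in +R, then 24.2 and 29.7 in R+LE, from 215 and 163, 1869 and 1535, and 4894 and 5786 reads. For both genes the -R libraries were the lowest and the R+LE libraries the highest, an order that for Col4a2 chose the group. The share of all genes with this order was not counted. In bulk libraries, more cells of a type and more RNA per cell cannot be told apart.

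The mean of Col4a1 was 0.694 ± 0.00919 RPKM in -R, 6.57 ± 0.787 in +R, then 19.6 ± 3.2 in R+LE (SD, n = 2 per group), so that +R was 9.47-fold higher than -R and R+LE 2.98-fold higher than +R. The fitted log2 difference of Col4a1 was 2.56 ± 0.15 (SE) for +R against -R, with an adjusted p of 3.38e-09 from limma. For R+LE against +R it was 1.503 ± 0.15 with an adjusted p of 1.18e-05, and for R+LE against -R it was 4.06 ± 0.15 with an adjusted p of 7.14e-11. These p-values are not independent of the choice of its neighbour Col4a2. The mean of Col4a2 was 0.937 ± 0.291 RPKM in -R, 8.66 ± 1.2 in +R, then 27.0 ± 3.87 in R+LE (SD, n = 2 per group), which is 9.24-fold higher in +R than in -R and 3.11-fold higher in R+LE than in +R. Its fitted log2 differences were 2.68, 1.58 and 4.26 in the same order. By the fitted difference between R+LE and -R, Col4a2 was 6th and Col4a1 8th from the top of the 11595 genes, whereas for +R against -R they were 86th and 99th, and for R+LE against +R 39th and 50th. These comparisons share libraries with each other, and they are set side by side only as values.

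**Figure D1:**
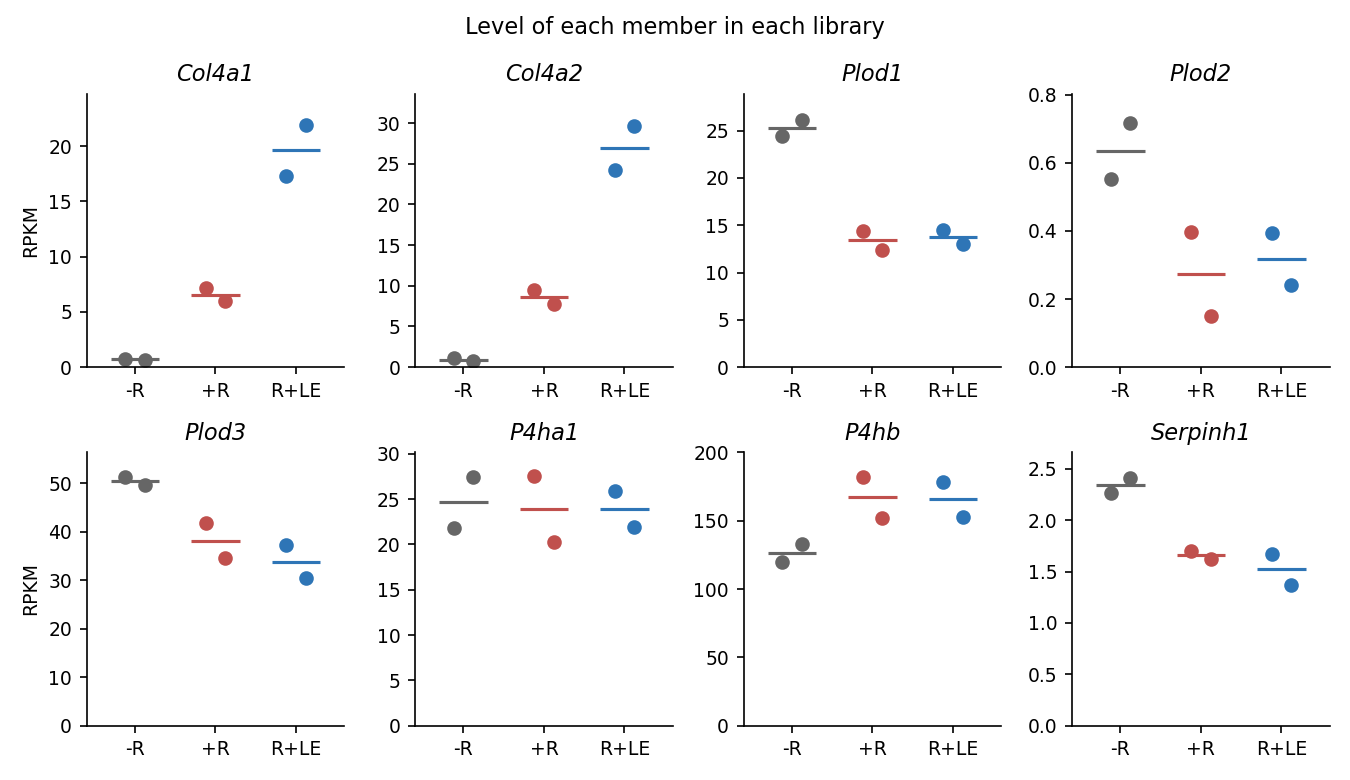
Level of each gene in each library in RPKM (vertical axes, each from 0), by group. Points are libraries and bars are the means of 2 libraries. Col4a1 and Col4a2 step up from -R to +R to R+LE, Plod1 is at 24.5 and 26.1 RPKM in -R and at 12.4 to 14.5 in the other libraries, and the P4ha1 points of all groups lie between 20.3 and 27.6 RPKM.

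The chain levels stayed in a similar ratio. The ratio of Col4a1 to Col4a2, per length, was 0.612 and 0.940 in -R, 0.749 and 0.770 in +R, then 0.716 and 0.736 in R+LE. Its mean was 0.776 ± 0.231 in -R, 0.759 ± 0.0146 in +R, then 0.726 ± 0.0146 in R+LE (SD, n = 2 per group). Col4a1 was thus the lower of the pair in every library, and the spread within -R, where the genes had 135 to 215 reads, covered all of the other values.

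The other measurable chain genes of collagen IV passed the RANKL comparison and not the LE comparison. Col4a5 (chromosome X, 141475419 to 141689235, plus strand) was at 1.22 and 1.02 RPKM in -R, 16.1 and 13.4 in +R, then 13.3 and 14.9 in R+LE. It rose by 3.23 ± 0.15 on the log2 scale with RANKL (limma adjusted p 1.65e-10), while the difference between R+LE and +R was -0.06 ± 0.15 (adjusted p 0.876), and these groups overlapped. Col4a6, its head-to-head neighbour (141165403 to 141474076, minus strand), was at 0.031 and 0.039 RPKM in -R, 2.74 and 1.85 in +R, then 1.34 and 2.08 in R+LE. The 6 and 9 reads of Col4a6 in -R became 555 and 374 in +R, a fitted log2 difference of 2.37 ± 0.23 (adjusted p 6.54e-07), and the difference between R+LE and +R was -0.34 ± 0.23 (adjusted p 0.435). Whether the LE difference of Col4a5 or Col4a6 differs from that of Col4a1 was not tested.

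Col4a3 had 1 to 7 reads and Col4a4 had 0 to 17 reads in any library, too few to be tested. Each pair sits head to head, with 71 bases between the starts of Col4a3 and Col4a4 and 1342 between those of Col4a5 and Col4a6, against the overlap of 22 bases for Col4a1 and Col4a2.

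**Figure D2:**
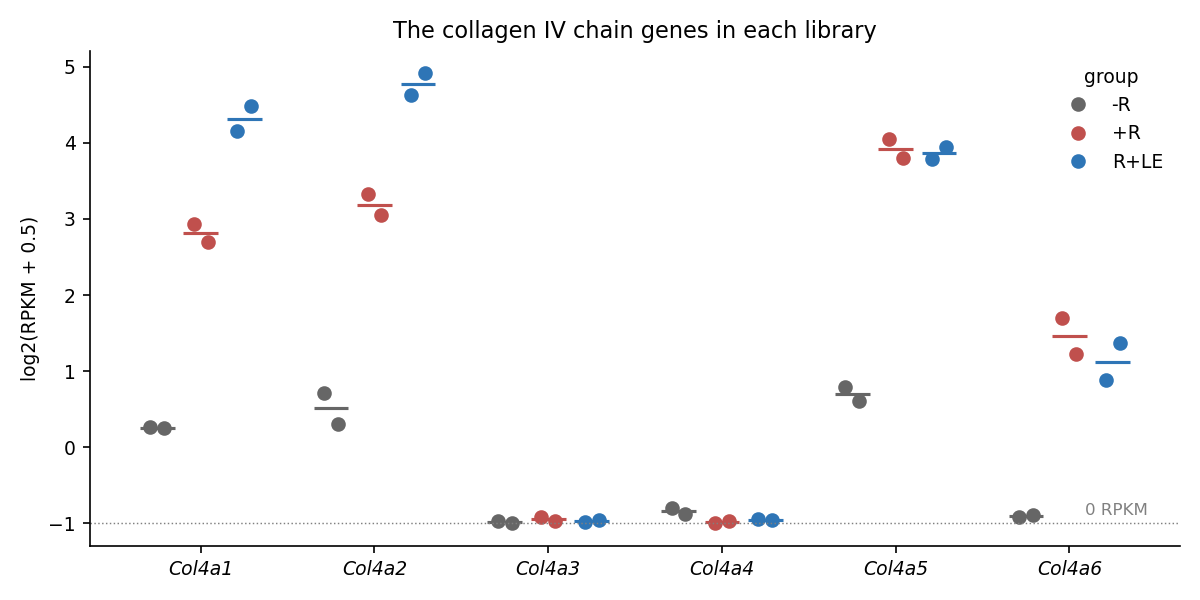
The 6 collagen IV chain genes in each library on the log2(RPKM + 0.5) scale (vertical axis), with points for libraries and bars for the means of 2 libraries, and the dotted line at 0 RPKM. Col4a1 and Col4a2 are highest in R+LE, Col4a5 is at 13.3 to 16.1 RPKM in the +R and R+LE libraries, and Col4a3 and Col4a4 stay near 0.

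None of the tested processing genes rose past the test in any comparison. Leaving Col4a2 aside, 7 of the 8 genes remain, and 6 of these passed the filter on low values. For +R against -R, Col4a1 was the 1 gene that rose, Plod1 and Plod3 fell and 3 did not pass, where 23.9% of all tested genes rose and 21.5% fell. Only Col4a1 was also called, where 6.58% of all tested genes were called higher and 8.92% lower. For R+LE against +R, Col4a1 rose and was called, and the other 5 did not pass, where 5.19% of all genes rose and 6.86% fell, and 1.46% were called higher and 1.78% lower. For R+LE against -R, Col4a1 rose and was called, and Plod1, Plod3 and Serpinh1 fell by less than 2-fold, where 15.3% of all genes rose and 19% fell, and 3.92% were called higher and 6.36% lower. The median fitted log2 difference of the 6 genes was -0.22, -0.00 and -0.27 in these comparisons, against 0.05, -0.05 and -0.01 over all tested genes. The order and overlap of libraries are given for each gene below as a description. The share of all genes whose -R libraries were the highest or the lowest was not counted.

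**Figure D3:**
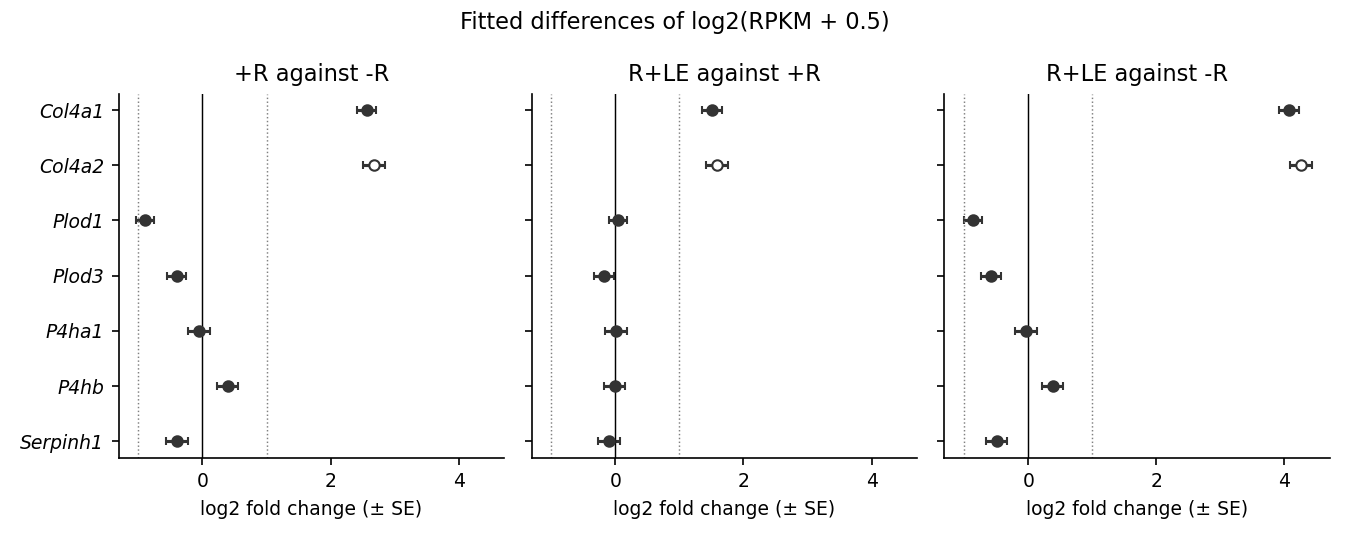
Fitted log2 differences of 7 genes (horizontal axes, error bars are SE) for the RANKL comparison (left), the LE comparison (middle) and R+LE against -R (right). Open points are Col4a2, given with no test, and dotted lines mark 2-fold. Only Col4a1 and Col4a2 lie beyond the 2-fold lines, and in the middle panel the other 5 genes lie between -0.17 and 0.04. Plod2 did not pass the filter and is not drawn.

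P4ha1 (chromosome 10, 59323296 to 59373304, plus strand), the catalytic subunit of prolyl 4-hydroxylase, was at 21.8 and 27.5 RPKM in -R, 27.6 and 20.3 in +R, then 25.9 and 21.9 in R+LE. All 3 groups overlapped. The fitted log2 difference was -0.05 for +R against -R (95% interval -0.41 to 0.32, limma adjusted p 0.839) and 0.01 for R+LE against +R (95% interval -0.36 to 0.38, adjusted p 0.985). For R+LE against -R it was -0.04 (adjusted p 0.889). The deposited transcript length of P4ha1 was 4026 bases, whereas the annotated exons of its transcript in GENCODE vM21 cover 2918. The level of P4ha1 relative to other genes, in the ratios and orders below, depends on which length applies, which was not tested.

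P4hb (chromosome 11, 120560298 to 120573253, minus strand), which besides its part in prolyl 4-hydroxylase makes and rearranges disulfide bonds in many secreted proteins, had the highest level of the group. It was at 120.1 and 133.0 RPKM in -R, 182.3 and 151.8 in +R, then 178.5 and 152.6 in R+LE. The -R libraries were the lowest, and +R and R+LE overlapped. The fitted log2 difference of P4hb was 0.40 ± 0.16 for +R against -R (limma adjusted p 0.0627) and 0.38 ± 0.16 for R+LE against -R (adjusted p 0.0857), and neither passed. These sat near the threshold, as the first passed in 8 of the 17 alternatives tried and the second in 6. For R+LE against +R the difference was -0.01 (95% interval -0.36 to 0.34, adjusted p 0.981). The ratio of P4hb to P4ha1 was 4.84 to 5.51 in -R, 6.61 to 7.49 in +R, then 6.90 to 6.96 in R+LE.

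Plod1 (chromosome 4, 147909753 to 147936776, minus strand), the lysyl hydroxylase lost in a form of Ehlers-Danlos syndrome, was at 24.5 and 26.1 RPKM in -R, 14.4 and 12.4 in +R, then 14.5 and 13.0 in R+LE. The -R libraries stood above all others, and +R and R+LE overlapped. Plod1 fell by 0.89 ± 0.14 on the log2 scale with RANKL (limma adjusted p 9.22e-05), to 0.530 times its level in -R. Between R+LE and -R the difference was -0.86 ± 0.14 (adjusted p 0.000204), and between R+LE and +R it was 0.04 (95% interval -0.26 to 0.34, adjusted p 0.925). It passed both comparisons with -R in all 17 alternatives.

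Plod3 (chromosome 5, 136987019 to 136996646, plus strand), the lysyl hydroxylase known to be needed for collagen IV in basement membranes, was at 51.2 and 49.6 RPKM in -R, 41.8 and 34.5 in +R, then 37.2 and 30.4 in R+LE. The -R libraries were again the highest. Plod3 fell by 0.40 ± 0.15 on the log2 scale with RANKL (limma adjusted p 0.0435), and by 0.58 ± 0.15 between -R and R+LE (adjusted p 0.00881). The first no longer passed in 5 of 17 alternatives, with an adjusted p of 0.199 without -R replicate 1, 0.144 without -R replicate 2 and 0.352 without +R replicate 2. The second no longer passed without -R replicate 1 (0.0927) or without -R replicate 2 (0.0675). Annotated exons of Znhit1, on the other strand, cover 16.1% of the exon bases of Plod3, and Znhit1 was at a mean of 44.3 RPKM in -R, 37.2 in +R, then 36.9 in R+LE. Its part in the Plod3 values was not tested.

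Plod2 (chromosome 9, 92542223 to 92608427, plus strand), the hydroxylase that acts on the telopeptides of fibrillar collagens, had 17 to 92 reads per library and a mean over all libraries of 0.409 RPKM, under the filter. Annotated exons of Gm38391, on the other strand, cover 8.33% of its exon bases. Plod2 was at 0.553 and 0.716 RPKM in -R, 0.397 and 0.150 in +R, then 0.395 and 0.240 in R+LE. The -R libraries were the highest, and +R and R+LE overlapped. The sum of the lysyl hydroxylase genes was 76.3 and 76.5 RPKM in -R, 56.6 and 47.1 in +R, then 52.0 and 43.7 in R+LE. Plod3 gave 64.9% to 73.9% of this sum in every library, Plod1 25.4% to 34.1% and Plod2 under 1% in each.

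Serpinh1 (chromosome 7, 99345375 to 99353239, minus strand), the collagen chaperone, had a level below that of the chains in +R and R+LE. It was at 2.27 and 2.42 RPKM in -R, 1.70 and 1.63 in +R, then 1.67 and 1.37 in R+LE, from 93 to 187 reads. The -R libraries were the highest, and +R and R+LE overlapped. The fitted log2 difference of Serpinh1 was -0.39 ± 0.17 for +R against -R (limma adjusted p 0.0736) and -0.10 ± 0.17 for R+LE against +R (adjusted p 0.81). Between R+LE and -R it fell by 0.49 ± 0.17 (adjusted p 0.0358), a difference that no longer passed in 5 of 17 alternatives, among them without -R replicate 1, without -R replicate 2 and without R+LE replicate 2.

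The level of the chains relative to the processing genes was higher in +R than in -R and higher again in R+LE. The sum of Col4a1 and Col4a2 was 1.84 and 1.42 RPKM in -R, 16.6 and 13.8 in +R, then 41.6 and 51.6 in R+LE. Divided by Serpinh1 this was 0.813 and 0.587 in -R, 9.79 and 8.50 in +R, then 24.9 and 37.5 in R+LE. Divided by P4ha1 it was 0.0845 and 0.0516, 0.603 and 0.682, and 1.61 and 2.35 in the same order. Divided by P4hb it was 0.0153 and 0.0107, 0.0912 and 0.0910, and 0.233 and 0.338. For each of these ratios the groups did not overlap and R+LE was the highest. Since the sum contains the gene that chose the group, the ratios are given without a test.

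**Figure D4:**
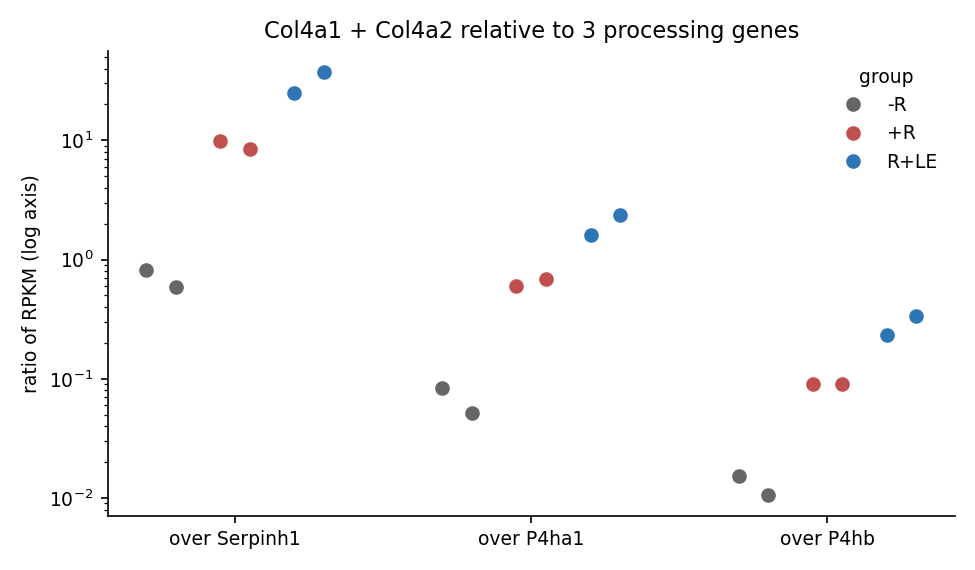
The summed RPKM of Col4a1 and Col4a2 divided by the RPKM of Serpinh1, P4ha1 or P4hb in each library, on a log axis. Each ratio is lowest in -R and highest in R+LE, from 0.587 to 37.5 over Serpinh1, from 0.0516 to 2.35 over P4ha1 and from 0.0107 to 0.338 over P4hb.

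The order of the levels differed between the groups. In -R it was P4hb, Plod3, Plod1, P4ha1, Serpinh1, Col4a2, Col4a1 and Plod2, and Plod1 overlapped with P4ha1 and Col4a1 with Plod2. In +R it was P4hb, Plod3, P4ha1, Plod1, Col4a2, Col4a1, Serpinh1 and Plod2, with no overlap between neighbours. In R+LE it was P4hb, Plod3, Col4a2, P4ha1, Col4a1, Plod1, Serpinh1 and Plod2, and Col4a2 overlapped with P4ha1. The chains stood above Serpinh1 in +R and above Plod1 in R+LE, while P4hb and Plod3 kept the first places in all groups.

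Genes of related lists are described next, against medians over all tested genes of 0.05 with RANKL and -0.05 with LE, where 23.9% of all tested genes rose and 21.5% fell with RANKL, and 5.19% rose and 6.86% fell with LE. Of 16 other genes of collagen modification and folding, 10 were tested, and 1 rose and 1 fell with RANKL and 1 fell with LE, with list medians of -0.10 and -0.01 on the log2 scale. Fkbp9, a prolyl isomerase of the endoplasmic reticulum, was at 2.87 and 3.00 RPKM in -R, 11.6 and 9.49 in +R, then 6.24 and 5.17 in R+LE. It rose by 1.68 ± 0.15 with RANKL (limma adjusted p 3e-07) and fell by 0.83 ± 0.15 with LE (adjusted p 0.00182). P4ha2, another catalytic subunit of prolyl 4-hydroxylase, fell by 1.06 ± 0.19 with RANKL (adjusted p 0.000243), from 2.65 and 2.44 to 1.14 and 0.793 RPKM, and was at 1.61 and 1.41 in R+LE. Ppib, the cyclophilin that works with the prolyl 3-hydroxylase complex, had the highest level of the list, from 111.0 to 140.6 RPKM, and its log2 differences were -0.10 with RANKL and -0.04 with LE, neither passing. Among 15 genes that trim, crosslink or help to trim collagens, 5 were tested and Tgm2 alone passed with RANKL, with a fall of 2.03 ± 0.17 (adjusted p 1.15e-07) from 121.9 and 125.2 to 34.0 and 26.4 RPKM, and none passed with LE. Tgm2 encodes a transglutaminase that crosslinks many matrix proteins. The median of this list was -0.10 with RANKL and 0.07 with LE.

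Of 19 other genes of basement membranes, 8 were tested, and 5 rose and 1 fell with RANKL (23.9% and 21.5% of all tested genes), with a list median of 0.75 on the log2 scale (0.15 to 0.88 over the alternatives). Lamc1, the common laminin γ chain, was at 11.5 and 12.1 RPKM in -R, 22.6 and 21.2 in +R, then 28.2 and 26.5 in R+LE. It rose by 0.86 ± 0.13 with RANKL (limma adjusted p 8.71e-05), and the further difference with LE, 0.31 ± 0.13, did not pass (adjusted p 0.167). Col18a1, the collagen that yields endostatin, rose by 1.25 ± 0.14 with RANKL (adjusted p 2.81e-06), from 6.04 and 5.07 to 13.8 and 14.0 RPKM, and Nid2, a nidogen that links laminin to collagen IV, by 0.63 ± 0.20 (adjusted p 0.017). Agrn, the proteoglycan agrin, rose by 1.79 ± 0.18 with RANKL (adjusted p 8.82e-07) and fell by 0.81 ± 0.18 with LE (adjusted p 0.00674). Lama3, a laminin α chain, went the other way, with a fall of 1.94 ± 0.17 with RANKL (adjusted p 1.92e-07) and a rise of 0.96 ± 0.17 with LE (adjusted p 0.00134). With LE, 1 of the 8 rose and 1 fell (5.19% and 6.86% of all), with a list median of 0.07.

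Among 20 genes of other collagens, 9 were tested, of which 1 rose with RANKL and 5 fell with LE, where 23.9% of all tested genes rose with RANKL and 6.86% fell with LE. The list medians were -0.02 and -0.53, and over the alternatives the first ranged from -0.18 to 0.05 and the second from -0.80 to -0.05. The 1 that rose was Col27a1, a fibrillar collagen, at 0.004 and 0.027 RPKM in -R, 1.77 and 2.38 in +R, then 0.356 and 0.560 in R+LE, with a log2 difference of -1.42 ± 0.23 for LE (limma adjusted p 0.000714). Col6a2 was at 1.09 and 1.19 RPKM in +R and 0.411 and 0.213 in R+LE, a fall of 1.02 ± 0.22 (adjusted p 0.00621). Col6a1, Col3a1 and Col1a2 fell with LE as well, by 0.88, 0.76 and 0.53. Col1a1 had the highest level of these in -R, 8.33 and 7.002 RPKM, and its LE difference of -0.45 did not pass (adjusted p 0.174). None of the 9 rose with LE.

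Of 11 listed collagen receptors, 4 were tested, with list medians of 1.102 with RANKL and -0.73 with LE. Over the alternatives these medians ranged from -0.07 to 3.26 and from -1.15 to -0.00. With each library left out they ranged from 0.97 to 1.23 and from -0.86 to -0.60. Oscar and Itga2 were under 0.5 RPKM in -R and passed the filter through libraries where they were higher. The medians rest in part on these genes. Itgb1, the integrin β subunit shared by the collagen-binding integrins, was at 98.7 to 122.8 RPKM in all libraries and did not pass (log2 difference 0.02 with RANKL, -0.01 with LE). Itga2, the α subunit of a collagen-binding integrin, was at 0.043 and 0.008 RPKM in -R, 2.06 and 1.72 in +R, then 0.452 and 0.292 in R+LE, and fell by 1.46 ± 0.23 with LE (limma adjusted p 0.000535). Oscar, the collagen receptor that costimulates osteoclast formation, had 0 reads in both -R libraries and was at 15.8 and 12.6 RPKM in +R, at least 274-fold higher than the 3 reads per library that a count of 0 allows. Oscar, which is also among the osteoclast markers above, fell by 2.15 ± 0.17 with LE (adjusted p 1.11e-06). Lair1, an inhibitory collagen receptor, fell by 1.48 ± 0.14 with RANKL (adjusted p 5.04e-07) and rose by 0.52 ± 0.14 with LE (adjusted p 0.0222).

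All 19 genes of endoplasmic reticulum folding and the unfolded protein response were tested, of which 4 rose and 1 fell with RANKL, and 1 fell with LE, shares at or below those of all tested genes. The list medians were 0.10 and 0.03, which changed sign in some alternatives (-0.00 to 0.26 and -0.12 to 0.17). Herpud1, which serves degradation of misfolded proteins, rose by 1.68 ± 0.14 with RANKL (limma adjusted p 1.41e-07), the chaperone Hsp90b1 by 0.92 ± 0.18 (adjusted p 0.000739), the stress sensor Atf6 by 0.54 ± 0.15 (adjusted p 0.00897) and the lectin chaperone Canx by 0.52 ± 0.17 (adjusted p 0.025). Ddit3, the stress transcription factor CHOP, fell by 0.85 ± 0.16 with RANKL (adjusted p 0.000449) and by a further 0.68 ± 0.16 with LE (adjusted p 0.0103). Calr, the calcium-binding chaperone of the same lumen, had the highest level, 430.8 to 605.6 RPKM, and did not pass in any comparison.

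**Figure D5:**
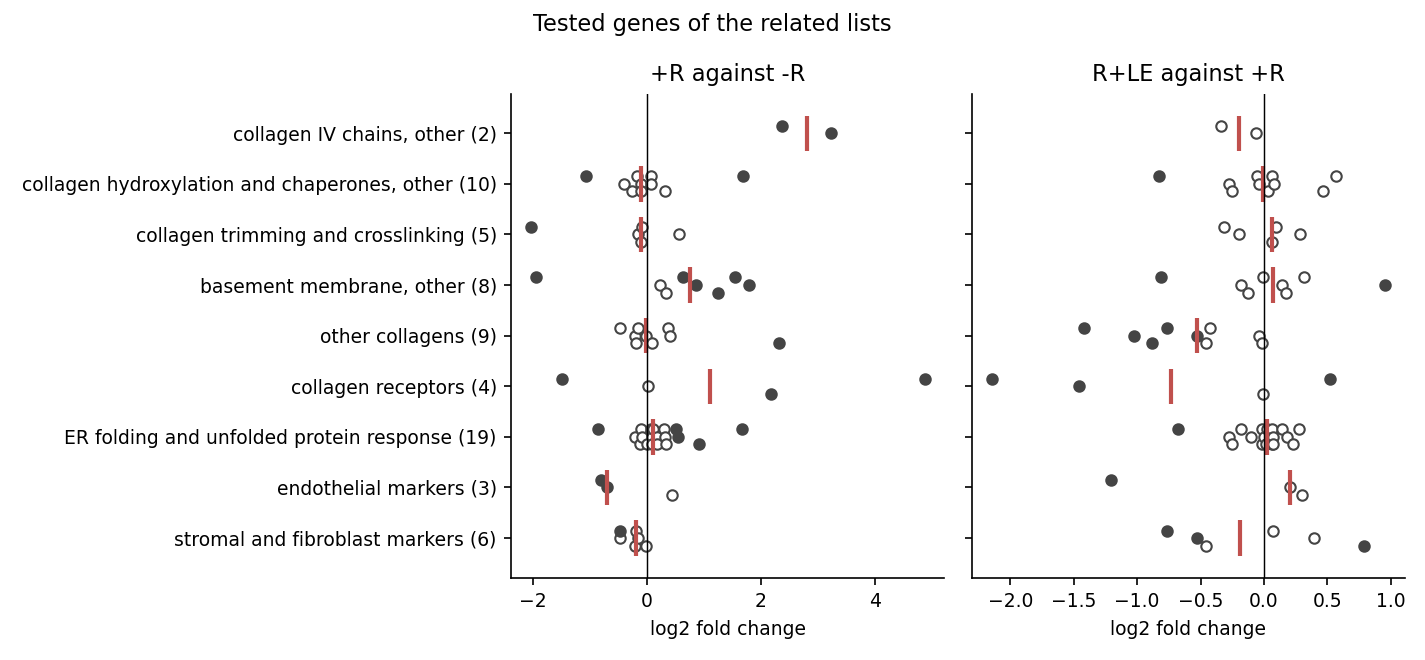
Fitted log2 differences of the tested genes of related lists, with the number tested in brackets, for +R against -R and R+LE against +R. Each point is a gene, filled where it passed at an adjusted p below 0.05, and the bar is the list median. The collagen IV chains outside the group, Col4a5 and Col4a6, are at 3.23 and 2.37 with RANKL and at -0.06 and -0.34 with LE, and the rightmost receptor in the left panel is Oscar, whose point depends on the pseudocount because it had 0 reads in -R.

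Cell types that make collagen IV in tissue were looked for by their markers. The summed level of 10 endothelial markers was 5.09 to 5.39 RPKM in -R, 3.09 to 3.52 in +R, then 2.90 to 4.20 in R+LE, and Cldn5 and Emcn had 0 reads in all libraries. Of the 3 that were tested, Vwf and Egfl7 fell with RANKL. Kdr was at 1.25 and 1.31 RPKM in -R and at 1.83 and 2.01 in +R. This log2 difference of 0.45 did not pass (limma adjusted p 0.0636), and Kdr fell by 1.20 ± 0.19 with LE (adjusted p 0.000473). Esam, an untested marker of the same list, was at 0.129 and 0.124 RPKM in -R, 0.053 and 0 in +R, then 1.60 and 0.694 in R+LE. The summed level of 12 stromal and fibroblast markers was 25.6 to 26.2 RPKM in -R, 18.4 to 22.3 in +R, then 18.7 to 19.4 in R+LE, and that of 6 osteoblast markers was 1.38 to 1.75, 0.954 to 0.963 and 1.17 to 1.62. Of the 6 stromal markers tested, 3 of which are also in the list of other collagens, Fn1 fell with RANKL, Col1a2 and Col3a1 fell with LE, and Acta2, the smooth muscle actin, rose by 0.79 ± 0.17 with LE (adjusted p 0.00645). None of these summed levels was higher in +R than in -R. Both R+LE libraries had a higher osteoblast sum than +R, most of it from Runx2, and Dmp1 had 0 reads in all libraries. The part of these cells in the collagen values was not tested.

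The genes with the pattern most like the chains were found by the root-mean-square difference, over the 6 libraries, between gene-centred log2(RPKM + 0.5) values and the mean of the chains, among 11285 other genes on transcripts of at least 200 nt. For scale, the distance between Col4a1 and Col4a2 was 0.143. The nearest was Serinc2, at a distance of 0.313, with 0.164 and 0.062 RPKM in -R, 4.88 and 3.29 in +R, then 7.63 and 7.54 in R+LE. Dmkn followed at 0.364, Vcan, the matrix proteoglycan versican, at 0.367, Ndrg2 at 0.381, Cacng8 at 0.483 and the chemokine Cxcl10 at 0.543. Vcan was at 1.19 and 1.47 RPKM in -R, 18.5 and 14.8 in +R, then 26.5 and 29.5 in R+LE. With no limit on transcript length, 9 of the 11595 tested genes were higher in both steps, +R over -R and R+LE over +R, by the fitted calls. Col4a2 is among the 9, but its rise in both steps chose the group, so its place there is no result. That of its neighbour Col4a1 is not independent of this choice. Outside the chains these were Cacng8, Cav1, Dmkn, Gm23450, Ndrg2, Ptgs1 and Tsku. Of all tested genes, 6.58% were called higher in the first step and 1.46% in the second, and the steps share the +R libraries.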

How the data were processed

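RNA-seq of 6 libraries was analysed, with groups and replicate numbers taken from the titles in the labels. The authors counted reads on the exons of 1 transcript per gene with HOMER, without regard to strand, after alignment to mm10, and deposited the values as RPKM under titles that say FPKM. The submitters' processing notes name HISAT2 and the methods of the study name TopHat as the aligner. Of the symbols, 26 had become dates and were restored from transcript identifiers. The deposited transcript lengths, whose unit is bases, turned at least 99.99% of the RPKM values checked in each library into whole reads within 0.2 reads, which gave depths and read counts. A floor of 3 reads was used, and it covers counting error only.

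limma 3.58.1 in R 4.3.3 was fitted to log2(RPKM + 0.5) of all 3 groups, with a variance trend and two-sided tests, over 11595 genes whose mean reached 0.5 RPKM, with Benjamini-Hochberg adjustment over all of them. Exact permutation of 2 against 2 libraries cannot give a p below 0.333, so none is used. No set test was run. On simulated data for 11573 genes and the +R against -R comparison, 182 of 200 changed genes were called. These were 101 of 104 changed 4-fold and 81 of 96 changed 2.5-fold, and 17 unchanged genes were called as well. The simulation gave all genes the same dispersion, so its error rates may differ from those of the data. Python 3.11.15, numpy 2.4.6, pandas 2.3.3 and matplotlib 3.10.9 were used for sequences, ratios and figures. Exon overlaps come from GENCODE vM21.

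The members and gene lists were chosen with earlier results of these data known. The genes named are the 8 members, up to 6 genes of each list (those called with the largest difference, and the highest one) and the 6 genes most like the chains. Others, such as Nid2, Hsp90b1, Atf6, Canx, Col6a1, Col3a1, Col1a2, markers under 2-fold and the genes higher in both steps, were chosen after their values were seen. Some genes of the lists are not reported here by name. Protein sequences were not used here.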

Additional observations from a re-analysis of the deposited data

How the results depend on the processing

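Over 17 alternatives, Col4a1 stayed called in all 3 comparisons and no other tested member was called in any. The highest adjusted p of Col4a1 was 0.0152, for LE. The number of genes called higher in R+LE than in +R was 169, and 259 with voom on the recovered reads, and no other count of calls moved by more than 1.5 times. Differences near 0 changed sign. For P4ha1, the scaling to reads without Rn45s gave 0.0275 for +R against -R and 0.0809 for R+LE against -R, where centring on the median gave 0.0156 and quantile normalization 0.0707. For P4hb in R+LE against +R, these gave 0.0325, 0.0394 and 0.12, and voom gave 0.0098. With each library left out, values ranged from -0.0648 to 0.1388 for Plod1, -0.21 to 0.23 for P4ha1, -0.14 to 0.12 for P4hb and -0.207 to 0.0032 for Serpinh1 in R+LE against +R. For P4ha1 they ranged from -0.27 to 0.17 in +R against -R and from -0.20 to 0.12 in R+LE against -R. The cause of these changes was not tested. Beside the libraries named with them, Plod3 no longer passed with RANKL with no filter (adjusted p 0.0941) and no variance trend (0.0616), at an unchanged fitted difference, and Serpinh1 no longer passed in R+LE against -R with no filter (0.0871) and with the scaling without Rn45s (0.0606). That scaling moved the median of all genes to 0.12 for +R against -R and 0.10 for R+LE against -R, and the share of higher among called genes in R+LE against -R from 38.1% to 48.8%.

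The labels give the groups the same replicate numbers. Deviations of same-numbered libraries correlated at -0.05, 0.11 and 0.25 between pairs of groups. Whether such libraries were prepared together cannot be told from these values. With the replicate block, 765 genes were called higher and 1036 lower for +R against -R, 173 and 216 for R+LE against +R, and 457 and 743 for R+LE against -R, and P4hb passed for +R against -R (adjusted p 0.0342) and for R+LE against -R (0.0491). The 2 libraries per group limit all of these tests, and Serpinh1, Plod2 and the chains in -R rest on few reads.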

Other observations

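A list of 17 hypoxia response genes, drawn up because P4ha1, P4ha2 (which it contains) and Plod genes are known as hypoxia targets, had 15 tested genes, of which 4 rose and 3 fell with RANKL and 1 fell with LE, where 23.9% of all tested genes rose and 21.5% fell with RANKL and 6.86% fell with LE. The medians were 0.30 and -0.02 on the log2 scale, and over the alternatives they ranged from 0.09 to 0.48 and from -0.25 to 0.12. Pdk1, which turns off pyruvate entry into the citric acid cycle, rose by 1.55 ± 0.15 with RANKL (limma adjusted p 8.08e-07), and Vegfa, the endothelial growth factor, fell by 0.78 ± 0.16 (adjusted p 0.00125). Ankrd37 rose by 1.28 ± 0.17 with RANKL (adjusted p 1.5e-05) and fell by 0.71 ± 0.17 with LE (adjusted p 0.0101).

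Of 14 genes that answer to or carry TGF-beta signals, all 14 were tested, and 4 rose and 7 fell with RANKL, while 7 rose and 2 fell with LE, where 23.9% and 21.5% of all tested genes rose and fell with RANKL and 5.19% and 6.86% with LE. The medians were -0.38 and 0.44 on the log2 scale, against 0.05 and -0.05 over all tested genes. Id1, an inhibitor of differentiation factors, fell by 4.22 ± 0.18 with RANKL (adjusted p 8.38e-11) and rose by 1.25 ± 0.18 with LE (adjusted p 0.000282). Ltbp1, which binds latent TGF-beta, rose in both steps, by 0.86 ± 0.20 (adjusted p 0.00276) and 0.82 ± 0.20 (adjusted p 0.0143). Bhlhe40 rose by 2.88 ± 0.14 with RANKL (adjusted p 3.91e-10) and fell by 1.32 ± 0.14 with LE (adjusted p 1.84e-05). The comparisons share the +R libraries, so their values are only set side by side.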
